A study of Rattus norvegicus and Ovis aries with 113 samples.

Results

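The beta-defensin family was followed through the RNA of rat and sheep reproductive samples and brain. Its members were all genes whose symbol, in capitals, starts with DEFB followed by a digit: 42 of the 38675 genes of the rat count table and 15 of the 31304 genes of the sheep table. Numbering is not shared between the species, and DEFB1 was the 1 symbol found in both. The rat samples came from Sprague Dawley animals: sperm (15 libraries) and whole brains (15 libraries) of post-pubertal males, and ovaries (14 libraries) and whole brains (14 libraries) of females. What the rat labels call sperm is called seminal fluid in the study's description. The sheep samples came from 5 post-pubertal males, numbered 687, 688, 690, 694 and 699, each with a sperm sample and 10 dissected brain regions. No animal was treated and no modified allele was named.

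Beta-defensins are small, positively charged secreted peptides held together by disulfide bonds between conserved cysteines. They damage microbial membranes and attract immune cells, in part through the chemokine receptor CCR6. In mammals many of their genes sit in clusters and are transcribed in the lining of the epididymis, the duct in which sperm mature, and several of the peptides attach to the sperm surface.

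All 42 rat members were placed on the GRCr8 assembly by RefSeq, in 4 clusters: 21 genes on chromosome 16 (76831868 to 77529918), 12 on chromosome 3 (161383615 to 161560025), 5 on chromosome 15 (41410651 to 41489562) and 4 on chromosome 9 (28329236 to 28380421). RefSeq's table held the 250 bases before the start site for 26 of them. The promoters of 5 members are printed because the levels of these genes followed 2 different patterns across the sperm libraries, described with the marker lists: Defb33 and Defb24 on the one side, and Defb28, Defb10 and Defb30 on the other. The sequences run 5′ to 3′ in the gene's own direction and end at the base before the start site of RefSeq's promoter table, which abuts the annotated gene except for Defb33, where it lies inside it. Capitals mark every match to the 4 motifs searched. Defb33 lies at chr16:77303968-77304217 (minus strand), Defb24 at chr3:161512984-161513233 (minus), Defb28 at chr3:161448066-161448315 (plus), Defb10 at chr16:76915206-76915455 (minus) and Defb30 at chr15:41474459-41474708 (minus).
Defb33: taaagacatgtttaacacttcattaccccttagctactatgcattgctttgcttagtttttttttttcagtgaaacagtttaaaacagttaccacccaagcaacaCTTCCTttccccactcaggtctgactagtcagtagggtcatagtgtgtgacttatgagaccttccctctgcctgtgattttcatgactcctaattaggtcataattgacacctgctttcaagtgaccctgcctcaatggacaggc
Defb24: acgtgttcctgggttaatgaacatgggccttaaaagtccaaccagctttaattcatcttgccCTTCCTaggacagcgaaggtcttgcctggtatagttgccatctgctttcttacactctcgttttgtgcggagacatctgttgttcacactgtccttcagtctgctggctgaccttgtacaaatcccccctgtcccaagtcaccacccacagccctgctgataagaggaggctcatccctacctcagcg
Defb28: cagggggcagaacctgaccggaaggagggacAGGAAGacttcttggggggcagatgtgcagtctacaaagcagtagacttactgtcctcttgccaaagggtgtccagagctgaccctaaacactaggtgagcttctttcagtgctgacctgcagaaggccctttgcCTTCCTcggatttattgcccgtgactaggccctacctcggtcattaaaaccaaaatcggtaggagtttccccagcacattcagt
Defb10: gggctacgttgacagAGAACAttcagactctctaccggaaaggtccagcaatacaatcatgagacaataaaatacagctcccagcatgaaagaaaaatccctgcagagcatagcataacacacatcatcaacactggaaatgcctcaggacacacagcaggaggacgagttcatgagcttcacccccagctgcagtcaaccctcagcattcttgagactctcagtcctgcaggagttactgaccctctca
Defb30: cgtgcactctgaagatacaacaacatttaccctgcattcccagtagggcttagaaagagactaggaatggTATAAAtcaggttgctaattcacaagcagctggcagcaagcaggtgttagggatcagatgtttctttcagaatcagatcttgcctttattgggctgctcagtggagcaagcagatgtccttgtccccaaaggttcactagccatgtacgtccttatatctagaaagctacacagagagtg

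The ETS-family motif AGGAAG, read on both strands (also as CTTCCT), was in 6 of the 26 members' promoters (23.1%) and in 29.5% of all 33469 promoters of the same length. It is the motif in capitals for Defb33, Defb24 and Defb28, and so occurred on both sides of that divide. The steroid receptor motif TGTTCT, also read as AGAACA, was in 10 of 26 (38.5%) against 17.5% of all promoters, and Defb10 carries it. The TATA box TATAAA, read on the gene's strand alone, was in 6 of 26 (23.1%) against 8.06%. Counted from the start site, its first base was at -246 in Defb20, at -180 in Defb30, at -37 in Defb22, at -41 in Defb49, at -34 in Defb18 and at -31 in Defb17. The cAMP response element TGACGTCA was in 0 of 26 members' promoters and in 1.59% of all. No matches overlapped within the members' promoters, and a match or its lack describes only the letters in this window.

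Library totals, in units of 1e+06 counts, ranged from 13.7 to 65.1 in rat sperm, 50.5 to 60.3 in ovary, 38.2 to 101.9 in male brain, 45.2 to 119.2 in female brain, 13.7 to 65.2 in sheep sperm and 46.7 to 72.4 in sheep brain. Levels are given as CPM (counts per 1e+06 counts) after TMM scaling and are not corrected for gene length, so an order of members is an order of read counts. All 12 spermatid and sperm genes were called higher in sperm than in brain in both species. All 8 granulosa, theca and luteal genes were called higher in rat ovary than in female brain, and 8 of 8 neuron and glia genes lower in rat sperm and in ovary than in brain. The rat sperm libraries also held the epididymal secretory list at a summed 10794 to 73749 CPM (25 of its 30 genes in the table, 0 of them without counts), against 5.93 to 11.0 CPM in male brain and 58.7 to 369 in ovary. Sheep sperm libraries held 9 of 12 neutrophil genes at a summed 13819 to 158921 CPM (1.56 to 6.62 in brain) and 10 of 12 stratified squamous epithelium genes at 8560 to 152317 CPM (0.132 to 3.81 in brain), 0 of them without counts. Their epididymal secretory list (18 of 30 genes, LCN9 and LCN10 without counts) summed to 28.6 to 195.0 CPM. The sheep sperm libraries had TMM factors of 0.114 to 0.305, so these sums are several times those of the plain totals. In bulk RNA, fewer cells of a type and less RNA per cell cannot be told apart. Rat sperm libraries 7, 16 and 17 stood apart in having 441, 320 and 300 genes with 1 to 3 counts, against 2545 to 4692 in the other 12, and 12, 22 and 19 members at 0, against 3 to 9. Female brain library 1 and male brain library 4 stood apart in that 10 genes, ribosomal RNA genes first, held 95.0% and 89.8% of their counts, against 5.08% to 60.7% in the other 27 rat brain libraries, and their TMM factors were 0.0688 and 0.125, against 0.513 to 1.37.

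In rat, nearly all beta-defensin reads were in the sperm samples. The 42 members together took 0.209% ± 0.164 (SD, n = 15) of a sperm library's counts, from 0.0321% in library 7 to 0.580% in library 15. The ovary share was 0.00118% ± 0.000421 (n = 14), that of male brain 0.000121% ± 5.50e-05 (n = 15) and that of female brain 7.68e-05% ± 4.49e-05 (n = 14). On the CPM scale the family summed to 2295 ± 1790 in sperm (272 to 6092), 9.83 ± 3.55 in ovary (4.45 to 18.5), 1.01 ± 0.401 in male brain (0.393 to 1.50) and 0.830 ± 0.395 in female brain (0.527 to 1.94). Without male brain library 4 and female brain library 1 the brain values were 1.05 ± 0.376 (n = 14) and 0.781 ± 0.365 (n = 13). The lowest sperm library was above the highest library of every other rat group, and every ovary library was above every brain library.

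All 42 members had counts in sperm. There, 6 averaged 100 CPM or more, 14 averaged 10 or more, 28 averaged 1 or more and 14 stayed below 1. In ovary 3 members averaged 1 CPM or more, 28 were below 1 and 11 had 0 counts, which allows each up to 0.00387 CPM (3 counts over the group's summed total). No member averaged 1 CPM in brain. In males 29 were below 1 and 13 had 0 counts (up to 0.00379 CPM), and in females 24 were below 1 and 18 had 0 counts (up to 0.00338 CPM). These limits cover counting error only.

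**Figure D1:**
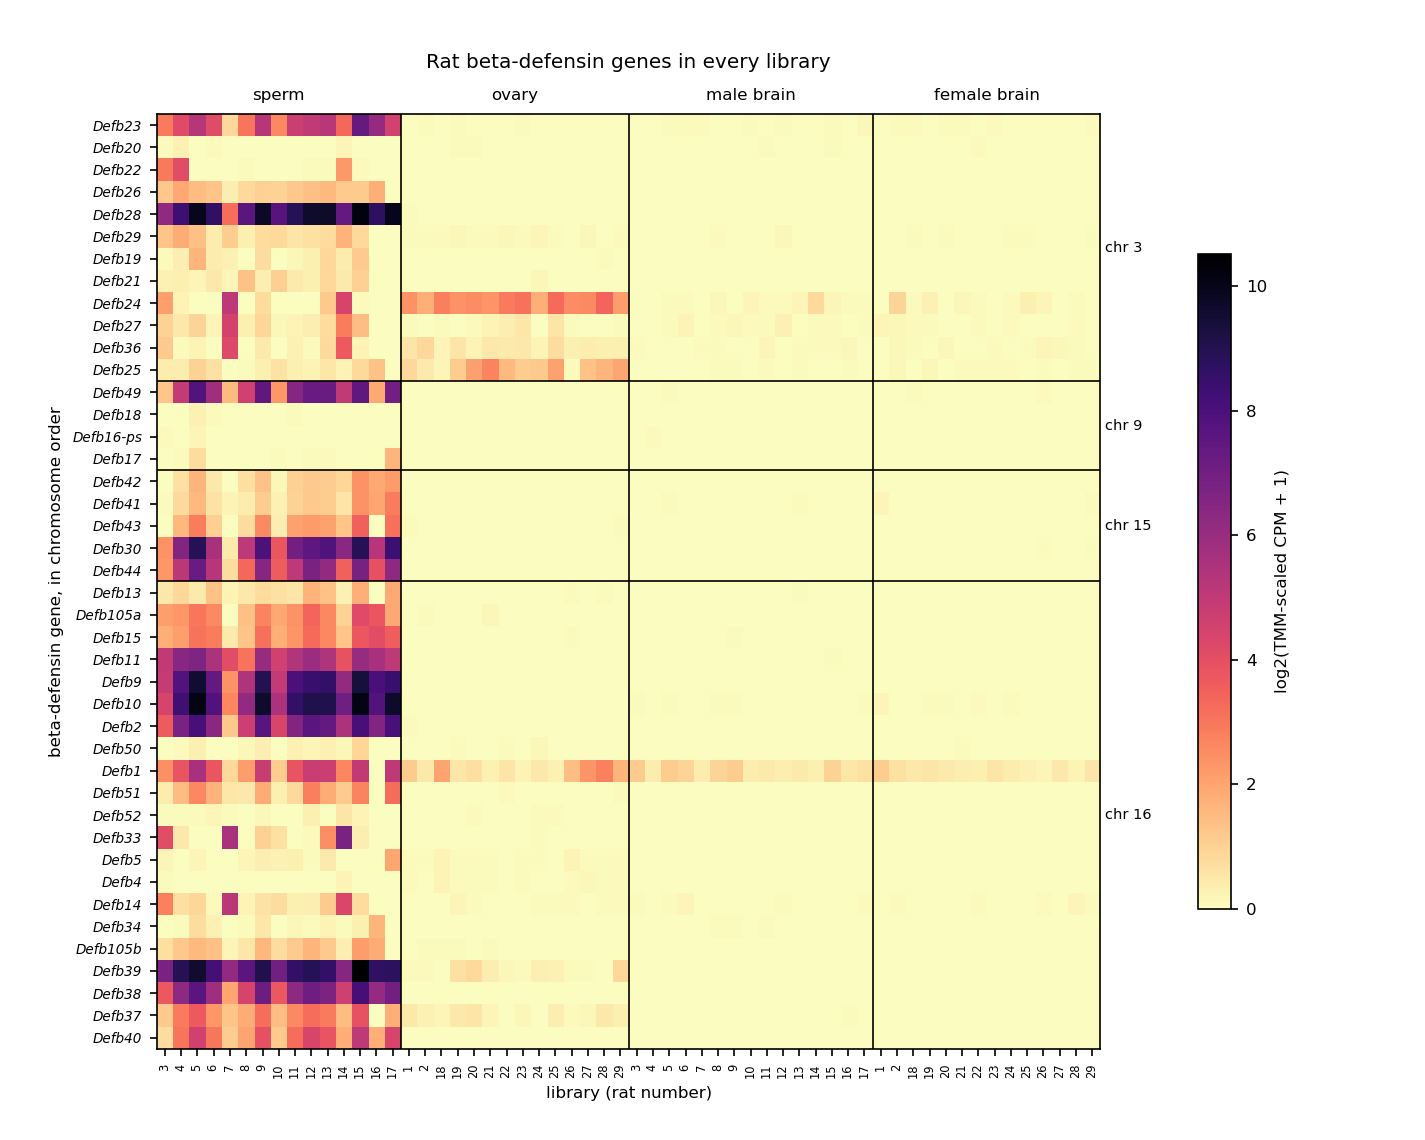
Level of each of the 42 rat members (vertical axis, in chromosome order) in each of the 58 rat libraries (horizontal axis, by group), as colour on the log2(CPM + 1) scale. The 15 sperm columns carry most of the colour, Defb24 and Defb25 are also visible in the 14 ovary columns, and Defb1 is faintly visible in every group.

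The chromosome 16 cluster gave 62.2% ± 5.52 (SD, n = 15) of the family counts in sperm, chromosome 3 27.4% ± 5.49, chromosome 15 7.47% ± 3.51 and chromosome 9 2.92% ± 1.72. A small number of genes dominated: Defb28, Defb39, Defb10 and Defb9 together held 68.8% ± 11.8 of the family's counts, from 32.7% to 79.6% across libraries. Defb28 had the most counts of any member in 10 libraries, Defb39 in 4 and Defb10 in 1.

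Chromosome 16 held 9 of the 14 members that averaged 10 CPM or more in sperm. Defb10 averaged 420.5 ± 381 CPM (SD, n = 15; 5.26 lowest, 312 median, 1108 highest). Defb39 averaged 414 ± 350 (71.5, 388 and 1461), and Defb9 averaged 270.0 ± 230.5 (4.14, 255 and 747). The lowest libraries of Defb10 and Defb9 were far below their medians, whereas Defb39 kept a level above 70 CPM in every library. Defb2 followed at 123 ± 98.0 CPM (1.34, 96.8 and 277). Defb38 was at 89.0 ± 79.0 (2.86, 75.3 and 288) and Defb11 at 45.0 ± 26.6 (7.44, 42.9 and 100.2). Defb11 had the smallest SD relative to its mean among the members above 10 CPM. Defb1, a beta-defensin made constitutively by many epithelia, averaged 16.2 ± 14.3 CPM (0, 13.5 and 47.1). It was the member with the most counts in both brain groups and had counts in all 15 male and all 14 female brains. Defb40 averaged 10.4 ± 9.67 CPM (0.639, 7.17 and 32.3), and Defb15, which has been tied to sperm motility, 5.97 ± 4.50 (0.330, 5.16 and 15.7). Defb105a stood at 5.38 ± 4.53 (0.0183, 4.14 and 16.8) and Defb37 at 4.95 ± 4.05 (0, 3.90 and 13.6). Reads of Defb105a and its near-namesake Defb105b (1.30 ± 0.982 CPM) could be divided between them by the counting, so their split is uncertain.

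Defb33 and Defb14, also on chromosome 16, were carried by few libraries. Defb33 averaged 12.0 ± 29.8 CPM with a median of only 0.273, and libraries 14, 7 and 3 (110, 46.7 and 15.9 CPM) held 96.1% of its summed level. Library 13 followed with 4.64 CPM, and 5 libraries had 0 counts. Defb14 averaged 4.29 ± 9.58 CPM (median 0.589), with 91.9% in libraries 7, 14 and 3 (33.9, 19.4 and 5.90 CPM), and its gene overlaps the uncharacterized gene LOC134482415. The mean of either gene therefore describes 3 libraries more than the group. The remaining members of the cluster were low: Defb51 averaged 2.48 CPM and Defb13 0.958, and Defb5, Defb34, Defb50, Defb52 and Defb4 ran from 0.296 down to 0.0153 CPM.

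On chromosome 3, Defb28 was the member with the most counts of the whole family, at 529 ± 381 CPM in sperm (7.97 lowest, 418 median, 1185 highest). Defb23 averaged 31.9 ± 39.3 CPM (0.769, 22.4 and 159). Defb28 was lowest in library 7 and was also low in library 3 (74.6 CPM) and library 14 (167 CPM). Their neighbours Defb24, Defb27 and Defb36 had the opposite distribution. Defb24 averaged 3.89 ± 9.49 CPM with a median of 0, and libraries 7, 14 and 3 (32.5, 20.4 and 3.28 CPM) held 96.4% of it. Defb36 averaged 2.16 ± 5.20 CPM, 94.5% of it in the same 3 libraries, and Defb27 averaged 2.29 ± 5.61 CPM, 86.2% of it in libraries 7, 14 and 15. The 3 genes stand next to one another, between 161506850 and 161547107. Defb22, which encodes a glycoprotein of the sperm surface coat, averaged 1.79 ± 4.42 CPM. It was also carried by few libraries, but by others: libraries 4, 3 and 14 (16.2, 6.69 and 3.70 CPM) held 99.0% of it, and library 7 had 0 counts. Defb26 averaged 1.32 CPM, and Defb29, Defb21, Defb19, Defb25 and Defb20 ran from 0.892 down to 0.0324 CPM.

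On chromosome 15, Defb30 averaged 157 ± 159 CPM in sperm (0.366 lowest, 95.9 median, 471 highest) and Defb44 50.3 ± 46.9 (0.641, 34.1 and 150). Defb43 averaged 2.99 ± 3.18 CPM (0, 2.02 and 10.5), Defb41 1.48 and Defb42, a beta-defensin described in rat sperm maturation, 1.33; the gene of Defb42 overlaps the pseudogene Rpl23a-ps2. All 5 genes of this short cluster thus averaged over 1 CPM. On chromosome 9, Defb49 averaged 81.5 ± 76.2 CPM (1.38, 55.1 and 219), whereas Defb17 (0.201 CPM), Defb18 (0.0220 CPM) and the transcribed pseudogene Defb16-ps (0.0131 CPM) were close to absent. Defb17 lies inside Defb16-ps, so their few reads cannot be attributed with certainty.

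**Figure D2:**
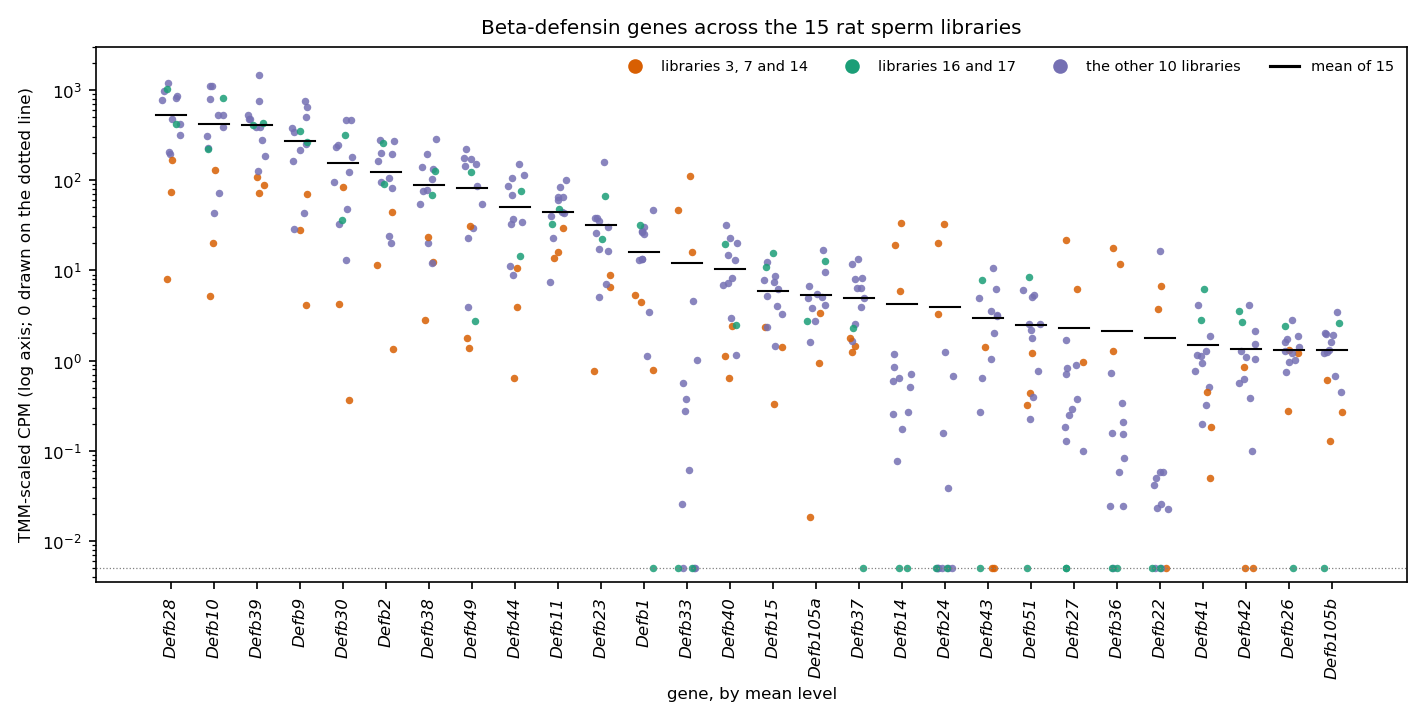
Level of the 28 rat members that averaged at least 1 CPM in sperm, in each of the 15 sperm libraries (CPM, log axis); the bar is the mean. Orange points are libraries 3, 7 and 14, green points libraries 16 and 17, and purple points the other 10; the orange points lie at the top for Defb33, Defb24, Defb14 and Defb36, and library 7 is the lowest for Defb28, Defb10 and Defb9.

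The comparison of sperm with male brain asked which members mark the male reproductive sample. The mean level was higher in sperm for 42 of 42 members. Counts were high enough for a test in 17 of them, and all 17 were called higher in sperm by edgeR's quasi-likelihood test (adjusted p under 0.05 and a fold change of at least 2), where 27.7% of the 20480 genes tested were called higher and 31.5% lower. Most of these members passed the filter on low counts only through the sperm libraries and so had to differ, and the count is given as a description. Every sperm library was above every brain library for 15 members, against 5.38% of all genes with a count. The median log2 fold change of the 17 was 13.75, or 13.50 with the 5 members without brain counts set to their bound, and that of all genes -0.03.

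Defb28 had 334689 counts in sperm and 1 count in male brain, and its log2 fold change was 17.16 ± 0.75 (SE, edgeR's quasi-likelihood test, Benjamini-Hochberg adjusted p = 3.54e-19). The SE of each fold change was taken from its size and the F statistic, and it understates the counting error of so few brain counts. Defb39, with 274278 sperm counts, had 0 in male brain and was at least 100011-fold higher in sperm. Defb38, Defb44, Defb40 and Defb26 also had 0 male brain counts and were at least 21243-, 11565-, 2481- and 324-fold higher in sperm. Defb9 (1 brain count) and Defb10 (17 brain counts) had log2 fold changes of 16.20 ± 0.85 and 14.21 ± 0.84. For Defb11, with 4 male brain counts, the fitted log2 difference was 12.65 ± 0.53 (edgeR, adjusted p = 8.10e-20). Its SE leaves out the same counting error. Defb23 kept 25 counts in male brain and was higher in sperm by a log2 fold change of 10.00 ± 0.69.

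Defb1 showed the smallest change of the 17. It had 534 counts in male brain (0.254 lowest, 0.418 median and 1.19 CPM highest) and was higher in sperm by a log2 fold change of 4.71 ± 0.62 (edgeR's quasi-likelihood test, adjusted p = 4.14e-08). The groups overlapped: sperm libraries 16 (0 counts), 7 (0.788 CPM) and 10 (1.14 CPM) lay below the highest male brain library. Of the 25 members that were not tested, 8 had 0 counts in male brain, among them Defb33, which was at least 3239-fold higher in sperm. Without the filter on low counts 40 of 42 members were called higher, where 36.6% of all genes were called higher and 25.6% lower, and Defb20 and Defb16-ps were not. Defb16-ps, with 9 counts in sperm and 3 in brain, had a ratio of 2.70. The 95% interval from the counting error of the 3 brain counts alone was 0.924 to 13.1.

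Between sperm and ovary, which come from different animals and sexes, 26 members were tested and 24 were called higher in sperm, where 22.9% of all genes tested were called higher and 27.9% lower. Of these 26, 7 had 0 ovary counts and another 6 had fewer than 10. Others had few counts in each ovary library, such as Defb23, Defb51 and Defb29 with at most 2, 6 and 9. All such members passed the filter on low counts through the sperm libraries and had to differ, and this count too is a description. The median log2 fold change of the 26 was 9.62, or 9.43 with the 7 members without ovary counts set to their bound, and that of all genes -0.12. This comparison uses the same sperm libraries as the last. Every sperm library was above every ovary library for 14 members (3.58% of all genes with a count). Members without an ovary count included Defb9, Defb30, Defb38, Defb49, Defb44 and Defb11, which were at least 62142-, 36169-, 20825-, 18261-, 11338- and 10488-fold higher in sperm. Defb39 had 215 ovary counts, in 13 of 14 libraries (0 lowest, 0.0934 median and 0.770 CPM highest), and was higher in sperm by 10.73 ± 0.71 on the log2 scale (edgeR, adjusted p = 5.12e-14). Defb37 had 192 ovary counts and a log2 fold change of 4.50 ± 0.62. Defb1 was higher in sperm by 3.40 ± 0.71 (edgeR, adjusted p = 0.00011), with overlapping groups.

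Defb25 was the only tested member called lower in sperm than in ovary, by a log2 fold change of -2.15 ± 0.59 (edgeR's quasi-likelihood test, adjusted p = 0.00181). Its ovary level was 1.79 ± 1.47 CPM (0.0589 lowest, 1.39 median, 5.40 highest; n = 14) and its sperm level 0.408 ± 0.409 (0, 0.295 and 1.53; n = 15), and the groups overlapped. Defb24 was not called, with a fitted log2 difference of -0.21 ± 1.04 (edgeR, adjusted p = 0.866), and here 3 sperm libraries decided the value. Without libraries 3, 7 and 14 it was called lower in sperm, by -4.67 ± 0.80 (edgeR, adjusted p = 6.78e-06). Defb36 was called higher in sperm, by 2.83 ± 0.98 (edgeR, adjusted p = 0.0111), and without those libraries its direction turned, to -1.04 ± 0.52 (edgeR, adjusted p = 0.0708). Those libraries held 96.4% of the summed sperm level of Defb24 and 94.5% of that of Defb36, and were left out after this was seen. Both values therefore had to fall, and the p-values without those libraries are given as a description. Without libraries 3, 7 and 14, 19 members were tested, 16 higher and 2 lower (22.7% and 28.7% of all genes). With voom and all libraries, 23 of the 26 were higher and 3 lower (18% and 34.9% of all genes), Defb24 and Defb36 among the latter. With all libraries and no filter on low counts, 39 of 42 members were called higher and 1 lower (35.9% and 19.7% of all genes).

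In ovary few members were present above 1 CPM. Defb24 had the most counts, 4947 in all, and a level of 5.28 ± 2.20 CPM (SD, n = 14; 2.37 lowest, 4.74 median, 9.61 highest), against 0.126 ± 0.231 CPM in female brain. All ovary libraries were above all female brain libraries, and the log2 fold change was 5.31 ± 0.48 (edgeR's quasi-likelihood test, adjusted p = 1.33e-11). Defb36, its neighbour on chromosome 3, was at 0.354 ± 0.188 CPM (0.145, 0.325 and 0.786) against 0.0477 ± 0.0424, again without overlap, and the fitted log2 difference was 2.76 ± 0.36 (adjusted p = 2.80e-08 from the same edgeR test). Defb1 was at 1.47 ± 1.72 CPM (0.175, 0.521 and 5.79) against 0.392 ± 0.239, with overlapping groups and a fitted log2 difference of 2.02 ± 0.48 (edgeR, adjusted p = 0.000293). These 3 were the only members that passed the filter on low counts, which asks for counts in nearly every library of a group, and all 3 were called higher in ovary, where 27.7% of the 20801 genes tested were called higher and 29.2% lower. Groups without overlap, found for 2 of the 42 members, were found for 16.6% of all genes with a count. Without the filter on low counts 21 of 37 members were called higher in ovary and 4 lower (25.1% and 30.5% of all genes). The 4 were Defb49, Defb41, Defb30 and Defb10, which have 0 or few ovary counts and only 9, 10, 4 and 14 counts in female brain.

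Other members with ovary counts did not pass that filter. Defb25 averaged 1.79 CPM there, more than Defb36 and Defb1, but fell to 4 counts in its lowest library, against 9 for Defb36 and 12 for Defb1. It had 1671 counts, in all 14 ovary libraries, and 36 in female brain, 49.9 times as many relative to the library totals. Defb37 was 38.0 times higher on that scale in ovary than in female brain. Defb27, between Defb24 and Defb36 on the chromosome, was at 0.117 ± 0.158 CPM against 0.0446 ± 0.0430, with overlap. The leading sperm members were at or near 0 in ovary: Defb9, Defb11, Defb30, Defb38, Defb44 and Defb49 had 0 counts, as did Defb22, Defb26, Defb34, Defb18 and Defb16-ps.

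**Figure D3:**
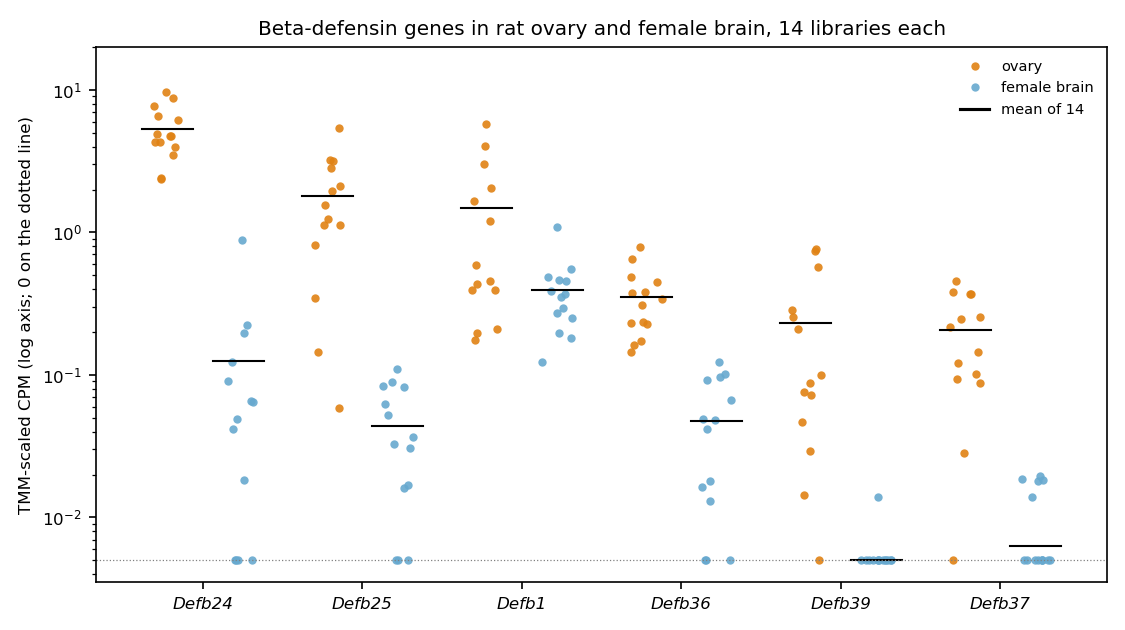
Level of 6 members in the 14 ovary and 14 female brain libraries (CPM, log axis; each point 1 library, the bar the mean). For Defb24 and Defb36 all ovary points lie above all brain points, whereas Defb1, Defb25, Defb37 and Defb39 overlap.

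No member was called between male and female brain. Defb1, the only member tested, was at 0.625 ± 0.361 CPM in males (n = 15) and 0.392 ± 0.239 CPM in females (n = 14), a log2 fold change of 0.82 ± 0.28 with an adjusted p of 0.278 (edgeR's quasi-likelihood test; unadjusted p = 0.00618). In CPM of the plain library totals the means were 0.730 and 0.332. The highest female value, 1.10 CPM, was that of library 1, from 9 counts. Without male library 4 and female library 1 the means were 0.648 ± 0.364 (n = 14) and 0.338 ± 0.131 (n = 13) and the log2 fold change 0.94 ± 0.27, again not called (edgeR, adjusted p = 0.125), where 0.0929% and 0.0147% of all genes were called. Of 20570 genes tested, 0.0438% were called higher in males and 0.0146% lower. Without the filter on low counts 0 of 32 members were called (0.0479% and 0.00899% of all genes) and 3 had an unadjusted p under 0.05, and with DESeq2 0 of 32 were called (0.0839% and 0.027%). For 0 members was every male library above every female one, against 0.024% of genes.

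Across the 15 sperm libraries some members followed one marker list and some another, which was seen in the levels before it was measured. Each of the 28 members with a mean of at least 1 CPM was related to the mean log2(CPM + 1) of the spermatid and sperm list and of the epididymal secretory list, 56 relations in all, with p-values from 100000 permutations, two-sided, adjusted over the 56. The spermatid and sperm list ran from 2.93 in library 6 to 8.69, 9.96 and 10.63 in libraries 3, 7 and 14. In those 3 libraries the protamine gene Prm1, which packs sperm DNA, was at 2009, 4992 and 4766 CPM, against 11.7 to 548 CPM in the others. The summed level of the list's 12 genes was 362 to 31592 CPM in sperm and 40.5 to 51.7 CPM in male brain, and the 15 points of each relation share their library's depth and composition.

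Defb33, Defb24, Defb14 and Defb36 rose with the spermatid and sperm list by both measures. Defb33 gave r = 0.94 and rho = 0.83 (permutation, adjusted p = 0.00056 and 0.01; n = 15), and r = 0.86 without the 2 libraries farthest from the median. Defb24 gave r = 0.89 and rho = 0.80 (permutation, adjusted p = 0.00056 and 0.01), and r = 0.81 without those 2. Defb14 gave r = 0.88 and rho = 0.72, and Defb36 r = 0.84 and rho = 0.62 (permutation, adjusted p for rho 0.021 and 0.047). Within the 12 libraries other than 3, 7 and 14, r was 0.77 for Defb33, 0.65 for Defb24, 0.48 for Defb14 and 0.49 for Defb36. Defb27 had r = 0.75 but rho = 0.55 (permutation, adjusted p = 0.011 and 0.088), and r fell to 0.37 without the 2 farthest libraries.

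The genes with the most reads did the reverse by Pearson's r, and here the relation rested on the same 3 libraries. Against the spermatid and sperm list, r was -0.67 for Defb39, -0.66 for Defb28 and -0.61 for Defb10, while rho was -0.46, -0.42 and -0.41 (permutation, adjusted p for rho 0.18, 0.20 and 0.20). In the other 12 libraries r was -0.05, 0.03 and -0.09. By rho, 4 of 28 members were positively and 0 negatively related to this list at an adjusted p under 0.05, and by r 5 positively and 9 negatively. The share of all genes related to this list, or to the epididymal secretory list below, was not measured. The counts of related members are therefore a description.

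With the epididymal secretory list 16 of 28 members were positively related and 0 negatively, by either measure. That list names the SPAG11 genes, which are beta-defensin-like, and the relations were not measured without them. By rho, 8 of the 28, Defb22 and Defb27 among them, did not reach an adjusted p under 0.05 with either list (permutation), which does not show a lack of relation. Defb30 gave r = 0.80 and rho = 0.79 (permutation, adjusted p = 0.0034 and 0.01; n = 15), and r = 0.67 without the 2 farthest libraries. Defb9 gave r = 0.77 and rho = 0.78 (permutation, adjusted p = 0.0055 and 0.01), and r = 0.60 without those 2. Defb10 and Defb2 gave r = 0.76 and 0.77, and r = 0.89 and 0.90 in the 12 libraries other than 3, 7 and 14. Defb33, Defb24, Defb14 and Defb36 gave r between -0.12 and -0.01 with this list. The part of the mixture of spermatid and epididymal RNA in the members' levels was not tested.

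**Figure D4:**
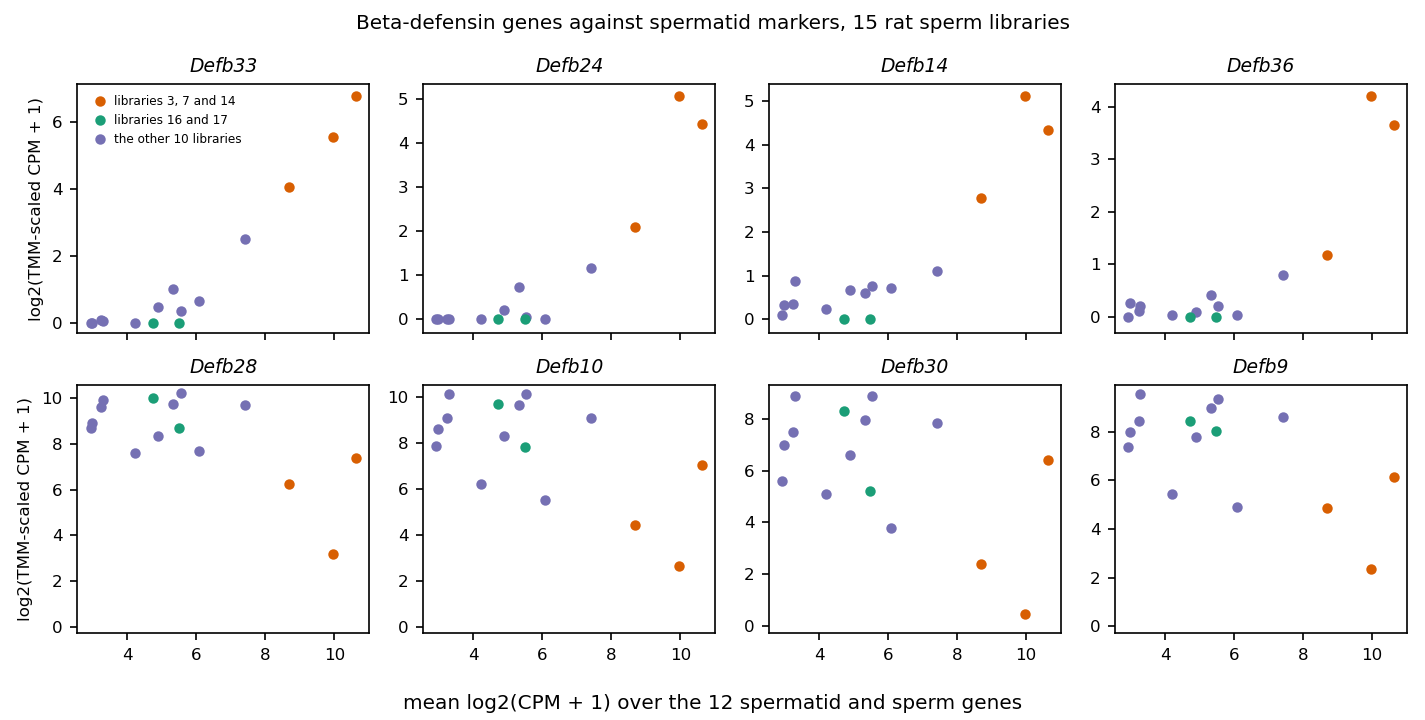
Level of 8 members in each of the 15 sperm libraries (log2(CPM + 1), vertical axes) against the mean log2(CPM + 1) of the 12 spermatid and sperm genes (horizontal axes). Defb33, Defb24, Defb14 and Defb36 (top) climb to their highest values in libraries 3, 7 and 14, and Defb28, Defb10, Defb30 and Defb9 (bottom) are low in libraries 3 and 7.

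Genes of the same field were counted beside the family. Of the other antimicrobial peptides and proteins, 10 of 27 in the rat table were tested between sperm and male brain, 6 were higher and 1 lower in sperm (27.7% and 31.5% of all genes), and the median log2 fold change was 1.91 (-0.03 for all genes). Lactoferrin (Ltf), an iron-binding antimicrobial protein, was at 525 ± 469 CPM in sperm, lysozyme 2 (Lyz2) at 330.2 ± 289 and the protease inhibitor Slpi at 195 ± 243. In ovary against female brain 8 of 13 tested were higher and 1 lower (27.7% and 29.2% of all genes). The same shares of all genes stand beside the other lists of these 2 comparisons. Of the defensin receptors and signalling genes, 8 of 12 tested were higher in sperm and 0 lower, with the NF-kappaB subunit Rela at 48.6 ± 9.38 CPM and the adaptor Myd88 at 26.8 ± 9.38, a median log2 fold change of 1.88, and 11 of 12 were higher in ovary and 1 lower. Of 11 tested epididymal regulators 5 were higher in sperm and 3 lower, with a median of 0.46. Among them the urogenital transcription factor Pax2 was at 244 ± 90.2 CPM, Grhl2 at 169 ± 57.7 and Pax8 at 69.9 ± 28.2. The marker lists gave 8 higher and 1 lower of 10 tested for epididymal secretory genes, led by Serpina1f (19348 CPM), Serpina16 (17581 CPM) and Ces5a (8240 CPM), with a median log2 fold change of 9.84. They gave 4 higher and 1 lower of 5 for vas deferens and accessory gland, 5 higher of 7 for neutrophil, 2 higher and 2 lower of 5 for stratified squamous epithelium, and 1 higher and 2 lower of 7 for choroid plexus and ependyma, with medians of 5.15, 2.91, -0.11 and 0.01. As drawn up for both species, the neutrophil and other antimicrobial lists share Ltf, Camp and Lcn2, so their counts are not separate results.

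In sheep the 15 members found by their symbol were scarce everywhere, in sperm as well as in brain. Any beta-defensin genes that the sheep table holds under other symbols were not counted, so this does not describe the whole family. The 15 members took 0.000231% ± 6.00e-05 (SD, n = 5) of the counts in sperm and 0.000125% ± 0.000106 over the 50 brain libraries. They summed to 496 counts in sperm and 3585 in brain. The sheep sperm libraries had TMM factors of 0.114 to 0.305 and the brain libraries of 0.927 to 1.42, so that sperm levels after scaling were several times those of the plain totals. In sperm 4 members averaged between 1 and 10 CPM after scaling, but between 0.249 and 0.658 CPM of the plain library totals, where 0 members reached 1. A further 7 were below 1 on both scales, and DEFB125, DEFB121, DEFB123 and DEFB114 had 0 counts, which allows each up to 0.0146 CPM of the plain totals. In brain 10 were below 1 CPM, and DEFB136, DEFB134, DEFB116, DEFB114 and DEFB113 had 0 counts (up to 0.00105 CPM). DEFB114 thus had no count in any sheep library. The sheep and rat libraries were scaled separately and are not compared by level.

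DEFB134 had 153 counts in sheep sperm and 0 in the 50 brain libraries. Its counts were 94 in sheep 687, 2 in 688, 8 in 690, 15 in 694 and 34 in 699, or 4.18 ± 4.90 CPM, with the highest animal well above the rest. It was at least 625-fold higher in sperm than in brain by plain library totals. DEFB119, a member expressed in the male tract of several mammals, had 11, 3, 2, 20 and 15 counts in the same order of animals (1.26 ± 0.797 CPM), and 14 counts in brain. For these 2 members every sperm library was above every brain library after scaling, as was the case for 9.48% of all genes with a count. In CPM of the plain totals this held for DEFB134 alone (3.28% of all genes): DEFB119 was at 0.0610 CPM in the sperm of sheep 688 and at 0.0946 CPM in the motor cortex of sheep 687. DEFB110 was counted in 3 of the 5 sperm libraries (9, 0, 4, 24 and 0 counts), DEFB124 in 3 (0, 7, 0, 8 and 10) and DEFB116 in 2 (30, 6, 0, 0 and 0). DEFB115 (8, 0, 0, 4 and 0) and DEFB136 (0, 2, 4, 0 and 0) were each counted in 2. Apart from the 30 counts of DEFB116 in sheep 687, these counts were too small to order the animals. The other 3 with counts in sperm were DEFB108B with 11, DEFB129 with 2 and DEFB113 with 1.

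Only DEFB1 and DEFB123 had counts enough for the test of sheep sperm against brain, in which 33.1% of the 21859 genes tested were called higher in sperm and 41.1% lower. DEFB1 had 47, 75, 1, 10 and 29 counts in the sperm of sheep 687, 688, 690, 694 and 699, or 6.31, 6.06, 0.329, 1.11 and 3.26 CPM. It was called higher in sperm (3.41 ± 2.75 CPM, n = 5) than in brain (0.734 ± 0.610 CPM, 50 libraries), by a log2 fold change of 2.30 ± 0.69 (edgeR's quasi-likelihood test, adjusted p = 0.00226), but in CPM of the plain library totals the direction was the opposite, 0.654 in sperm against 0.851 in brain. With the 10 regions summed per sheep, so that 5 sperm libraries met 5 brain sums, it was not called (log2 fold change 2.24 ± 0.97, edgeR adjusted p = 0.0598), and 27.6% of all genes were called higher and 36.4% lower. DEFB123 had 0 counts in sperm and 870 in brain, at least 21.1-fold lower in sperm by plain library totals. After TMM scaling this bound would be smaller, because the sperm factors of 0.114 to 0.305 raise the sperm limit. For DEFB123 the contrast with the mean of the regions could not be estimated (edgeR, adjusted p = 1.00). With the regions summed per sheep it was called lower in sperm, by -9.50 ± 2.46 on the log2 scale (edgeR, adjusted p = 0.0102). Without the filter on low counts 10 of 14 members were called higher in sperm and 0 lower (36.5% and 32.2% of all genes), DEFB134, DEFB119, DEFB110, DEFB124 and DEFB116 among them.

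In sheep sperm the other antimicrobial peptides and proteins were 10 higher and 1 lower than in brain of 11 tested (33.1% and 41.1% of all genes, here and for the lists that follow), with a median log2 fold change of 6.58 (-0.42 for all genes), led by WFDC2 (372 ± 331 CPM), S100A7A (362 ± 712) and PI3 (259 ± 249), a protease inhibitor. Of 11 defensin receptors and signalling genes tested 8 were higher and 0 lower, among them the bacterial lipoprotein receptor TLR2 (393 ± 449 CPM). Of 11 epididymal regulators 3 were higher and 3 lower. The marker lists gave 7 of 8 higher for neutrophil, 8 of 8 for stratified squamous epithelium, 7 higher and 1 lower of 9 for epididymal secretory genes, 1 of 2 for vas deferens and accessory gland, and 3 higher and 3 lower of 7 for choroid plexus and ependyma. The part of these cells' RNA in the sheep sperm levels of the members was not tested.

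Among brain regions, DEFB123 differed and DEFB1 did not pass the test (edgeR's quasi-likelihood F test over the 10 regions, adjusted p = 7.82e-13 and 0.990), where 76.7% of the 21147 genes tested differed. Without the filter on low counts DEFB129 also passed (adjusted p = 0.0262 by edgeR), and 58.7% of all genes did. DEFB123 had its highest mean in cerebellum, with 32, 299, 187, 29 and 53 counts in sheep 687, 688, 690, 694 and 699 (1.57 ± 1.56 CPM, 0.376 to 3.95). It averaged 0.422 ± 0.429 CPM in pons and 0.408 ± 0.199 in basal ganglia, and both reached into the range of cerebellum (to 1.09 and 0.576 CPM). Cerebellum was the highest region within 3 of the 5 sheep. Pons was higher in sheep 687 (1.09 against 0.435 CPM) and basal ganglia in 694 (0.532 against 0.376 CPM). Without sheep 688 the cerebellum mean was 0.979 ± 0.954 CPM (n = 4). In the other 7 regions it averaged 0.0260 CPM or less, and posterior parietal cortex had 0 counts. All 5 cerebellum libraries and all 5 pons and basal ganglia libraries had counts.

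The choroid plexus and ependyma list, 7 of whose 8 genes were in the table, summed to 5.63 to 1218 CPM over the brain libraries. For all 7 genes the means of cerebellum, pons and basal ganglia overlapped in range with those of the other 7 regions. KL ran from 3.36 to 3.73 CPM in the former and from 0.557 to 7.29 in the latter, CCDC153 from 4.11 to 9.51 and from 3.90 to 7.61, and FOXJ1 from 1.54 to 12.6 and from 0.296 to 11.2. The cerebellum library of sheep 688 had the highest DEFB123 level (3.95 CPM) with 9.70 CPM of TTR, which encodes transthyretin, the main secreted product of the choroid plexus, and that of sheep 690 had 2.39 CPM of DEFB123 with 490 CPM of TTR. The hippocampus library of sheep 694 had the highest TTR level (1167 CPM) with a DEFB123 level of 0.0214 CPM. By region, mean TTR was 314 CPM in hippocampus, 262 in cerebellum, 240 in pons and 7.05 in basal ganglia. The list's part in the DEFB123 levels was not tested.

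DEFB1 varied between sheep more than between regions, which was noticed in the values and is given as a description. The 10 brain libraries of sheep 690 held 14 DEFB1 counts in all, 0 to 9 in each and at most 0.138 CPM. The 40 brain libraries of the other 4 sheep held 2432 counts, 9 to 140 in each and at least 0.145 CPM. Means over the regions were 1.40 CPM in sheep 687, 1.18 in 694, 0.725 in 688, 0.337 in 699 and 0.0210 in 690, while means over the animals ran from 0.530 CPM in cerebellum to 1.23 in basal ganglia. Sheep 690 also had the fewest DEFB1 counts in sperm, 1 of 162, in the smallest sperm library. All 10 libraries of 1 sheep were below all 40 others for 42 of 21147 genes (0.199%), 18 of them for sheep 690, DEFB1 among these on both scales. DEFB123 did not show this: its brain counts were 249 in sheep 690 and 73 to 361 in the others.

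**Figure D5:**
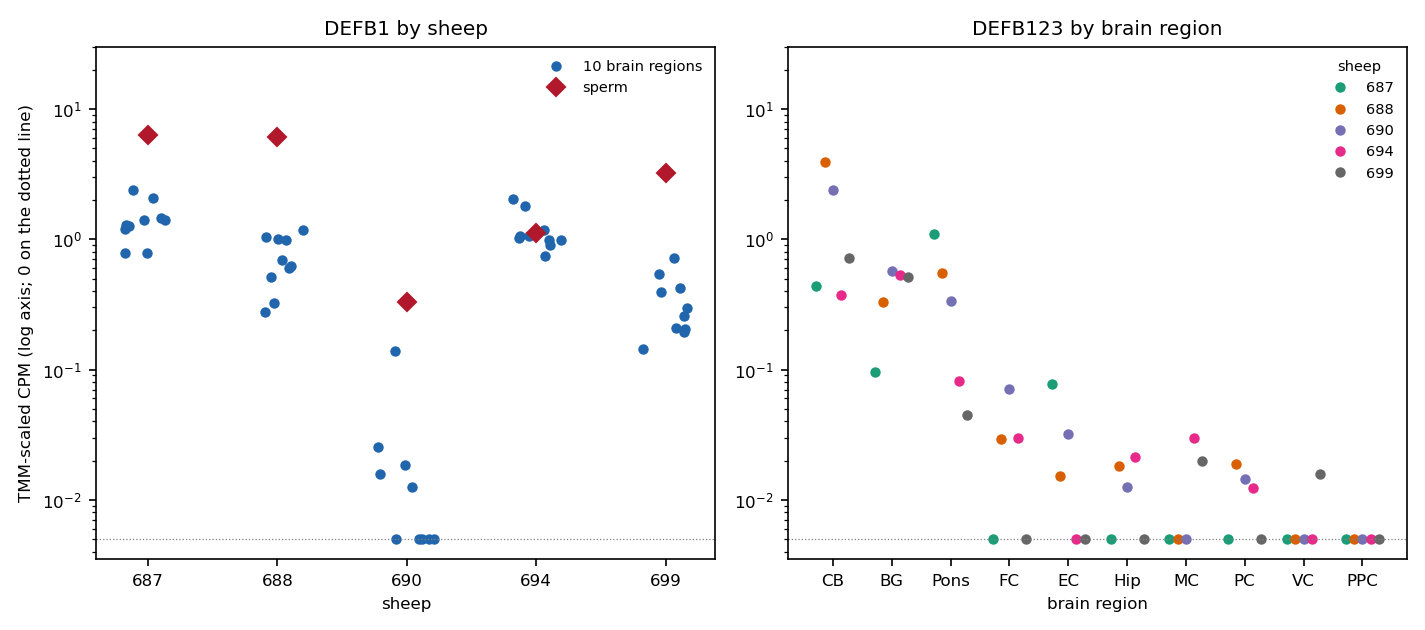
Sheep DEFB1 by animal and DEFB123 by brain region (CPM; each point 1 library). DEFB1 lies at or below 0.138 CPM in all 10 brain libraries of sheep 690 and at or above 0.145 CPM in all others, and DEFB123 has its highest mean in cerebellum (CB), followed by pons and basal ganglia (BG), whose points overlap it.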

How the data were processed

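RNA sequencing libraries of rat sperm (15), ovary (14), male brain (15) and female brain (14) and of sheep sperm (5) and 10 brain regions (50) were used as the gene counts that the authors deposited. Per the series' design text, RNA was extracted with a Zymo kit (rat) or TRIzol (sheep) and sequenced from stranded mRNA library kits. Per the same text, reads were trimmed with Trimmomatic 0.39, aligned with STAR 2.7.5a to GRCr8 (rat) or ARS-UI_Ramb_v3.0 (sheep) and counted with Rsubread 2.20.0 in R 4.4.2. How the counting treated strand and reads matching several places was not given in the sources used here, so overlapping and near-identical genes are uncertain.

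Each comparison was fitted on the whole table with edgeR 4.0.16 (R 4.3.3; TMM factors, filterByExpr, quasi-likelihood test) and adjusted by the Benjamini-Hochberg method. Calls needed an adjusted p under 0.05 and a log2 fold change of at least 1 (no fold minimum for regions). Fits were tested on simulated data. CPM used TMM-scaled totals per species. A fold against 0 counts used 3 counts over the group and plain totals. Alternatives were other scalings, no filter, DESeq2 1.42.0, voom (limma 3.58.1), a replicate block, summed regions and left-out libraries, 3 of these sets chosen after seeing the data. Correlations used 100000 permutations (numpy 2.4.6, scipy 1.17.1).

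Named with full values were the 20 rat members highest in sperm, those at 1 CPM or more in ovary or brain, those called, and the sheep members at 1 CPM in any library. Members and lists were chosen with earlier results of these data known. Replicates are separate by number, the sheep brain regions come from the same 5 animals, and p-values measure the spread between these samples. Rat numbers were taken as animals, which the labels do not state. Rat sperm and male brain libraries carry the same numbers, as do ovary and female brain libraries, and the main fits did not pair them. Sheep numbers are animals, per the series' design text; same-numbered sperm and brain libraries had median correlations of their deviations between -0.01 and 0.07.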

Additional observations from a re-analysis of the deposited data

Results flagged for a closer look

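DEFB116 had 30 counts in the sperm of sheep 687 (4.03 CPM), and 6, 0, 0 and 0 counts (0 to 0.485 CPM) in that of the other 4 sheep. These counts are small. The gap to the nearest other sheep was 0.880 of the group's whole range, above the critical value of 0.71 for 5 samples. Of 19 groups examined in this way 1 passed, and chance alone passes about 1 in 20.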

How the results depend on the processing

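The low-count filter decided how many members were called. Without it, 40 of 42 members were higher in rat sperm than in male brain (17 with it; 36.6% of all genes), 39 higher than in ovary (24; 35.9%), 21 higher and 4 lower in ovary than in female brain (3 and 0; 25.1% and 30.5%), 10 higher in sheep sperm than in brain (1; 36.5%) and 2 different between sheep regions (1; 58.7%). DESeq2 called 37 higher in sperm than in male brain (24.2% of all genes), 11 higher and 1 lower in ovary than in female brain (22.2% and 27.5%), and 5 higher in sheep sperm (33.7%). With voom 3 members were lower in sperm than in ovary (34.9%) and 0 higher in sheep sperm (22.1%), and the 10 sheep regions summed per animal gave 3 higher and 1 lower of 5 tested (27.6% and 36.4% of all genes). Leaving out 1 sheep at a time gave 1 to 2 members higher in sheep sperm (2 without sheep 688; 32.2%).

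The values of Defb24 and Defb36 moved with the libraries and the model. For sperm against ovary, the log2 fold change of Defb24 was 0.064 with RLE factors, 0.0025 without libraries 16 and 17, -6.82 with voom (adjusted p = 1.37e-10) and -4.67 without libraries 3, 7 and 14, and 2 members were then lower in sperm (28.7% of all genes). That of Defb36 was -0.59 with DESeq2, -1.48 with voom (adjusted p = 0.00666) and -1.04 without libraries 3, 7 and 14. Without those 3 libraries 15 of 15 tested members were still higher in sperm than in male brain (24%), without libraries 7, 16 and 17 21 of 21 (28.6%) and without male brain library 4 21 of 21 (28%). In sheep, the log2 fold change of DEFB123 in sperm against brain was 1.21 with voom and -9.50 with summed regions (adjusted p = 0.0102), and that of DEFB1 was 2.12 with voom (adjusted p = 0.655). With upper quartile factors 8907 of all genes were higher and 6980 lower in sheep sperm, against 7239 and 8976, a shift of the median by 0.73. All genes called between rat sperm and male brain numbered 22067 without the filter and 18371 with DESeq2 (12111 in the report's fit), between sperm and ovary 19449 and 16112 (9971), between ovary and female brain 18799 without the filter (11832), and between the brains 19 and 37 (12), or 22 without male brain library 4 and female brain library 1. The fits without the filter and with DESeq2 covered more genes, 35486 against 20480 between rat sperm and male brain. The shares called there were 62.2% and 51.8%, against 59.1%. Between sperm and ovary they were 55.6% and 46.0% (50.8%), and between ovary and female brain 55.6% without the filter (56.9%). The cause of the changes in fold changes and calls was not tested.

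With the animal number as a replicate block, DEFB1 in sheep sperm was higher by 2.57 (adjusted p = 1.55e-08; 0.00226 without the block, 0.0598 with the regions summed per sheep). The block changed no member's call. Same-numbered rat libraries had median correlations of 0.04 (sperm and brain; 3 of 15 pairs over 0.1) and 0.01 (ovary and brain; 0 of 14). Members with few counts are limited by depth: 13 had 0 counts in male brain.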
